A study of Mus musculus with 42 samples.

Results

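Virgin-type tissue-resident natural killer (trNK) cells were examined among the pooled single cells of virgin and pregnant mouse uteri. They were chosen by unique molecular identifiers (UMIs, 1 per captured transcript). A cell was kept with a mitochondrial share under 10%, at least 1 UMI of Itga1 (the integrin chain CD49a), at least 1 UMI of Ncr1, Klrb1c and Eomes together (NKp46, NK1.1 and the NK transcription factor), and at least 2 UMIs of Cox6a2, Tcf7 and Tox together. It also had no UMI of Cd3e, at most 1 UMI of the granzyme genes Gzmd, Gzme, Gzmf and Gzmg together, and fewer than 5 UMIs of the cycling genes Mki67, Top2a, Birc5, Ube2c and Ccna2. This gate left 54 of 15175 cells, a share of 0.356% (exact binomial 95% interval 0.267 to 0.464%, counting error only). The values of the gate genes chose these cells and are given as a description only.

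The study followed wild-type C57BL/6 female mice, 8 to 12 weeks old, from the virgin state into early pregnancy, with the copulation plug set as gestational day (gd) 0.5. For the single-cell assay, live CD45+NK1.1+NKp46+ cells from virgin and from gd8.5 mice received sample tags and were captured as 1 mixture on the BD Rhapsody system. The 2 deposited single-cell tables, labelled virgin and gd8.5, listed the same 15175 cell numbers in the same order and shared 0 of their 35237 genes. They were therefore joined into 1 sample, and a cell could not be assigned to a virgin or a pregnant uterus. "Virgin-type" is accordingly a name for an expression pattern, and no single-cell value below compares virgin with pregnant mice. Bulk libraries of sorted live CD45+NK1.1+NKp46+CD49a+CXCR6- trNK cells gave a measure that the gate had not used, with 2 libraries per group. The bulk libraries formed 3 sets: virgin, gd6.5 and gd8.5 trNK cells; trNK-V, trNK-D and trNK-T of gd8.5 uteri, which had been sorted as low, intermediate and high for both CD55 and 4-1BB; and trNK-V cells of gd6.5 mice cultured for 72 h in 10 ng/mL IL-15 alone, with 20 ng/mL IL-21, or with IL-21 and 1 µM Stattic, an inhibitor of STAT3. All mice in these groups were wild type. The libraries held from 11862089 to 29537298 counts each, and nothing stated whether 2 libraries of a group came from separate mice, so p-values measure only the spread between these libraries.

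Uterine NK cells of the tissue-resident kind express CD49a, expand as the lining of the uterus decidualizes, and fill with granules. TCF-1, encoded by Tcf7, and TOX are transcription factors that work in the development and early stages of innate lymphocytes, whereas Cox6a2 encodes a cytochrome c oxidase subunit best known from heart and skeletal muscle. Granzymes D to G are serine proteases that the granulated uterine NK cells of pregnant mice make in large amounts.

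Each limit of the gate removed cells. Among the cells under the mitochondrial limit (13084), Itga1 kept 5891, the NK genes 5621 and the Cox6a2, Tcf7 and Tox rule 723. The Cd3e rule then left 710, and the granzyme limit removed 654 of these and left 56, of which 54 passed the cycling limit. As a share of the cells reaching it, the granzyme limit kept the fewest, 7.89%, against 12.9% for the Cox6a2, Tcf7 and Tox rule. The granzyme limit lay within the range found in cells that should lack these granzymes. Of 232 B-gate cells (at least 3 UMIs of Cd79a, Cd79b and Ms4a1, none of the NK genes), 170 carried 2 or more granzyme UMIs, a share of 73.3% (exact binomial interval 67.1 to 78.9%), with a median of 3 in cells of 1770.5 UMIs at the median. The virgin-type cells had a median of 1 granzyme UMI, and 18 of them had 0. Just outside the limit stood 52 cells with 2 granzyme UMIs and 54 with 3.

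**Figure D1:**
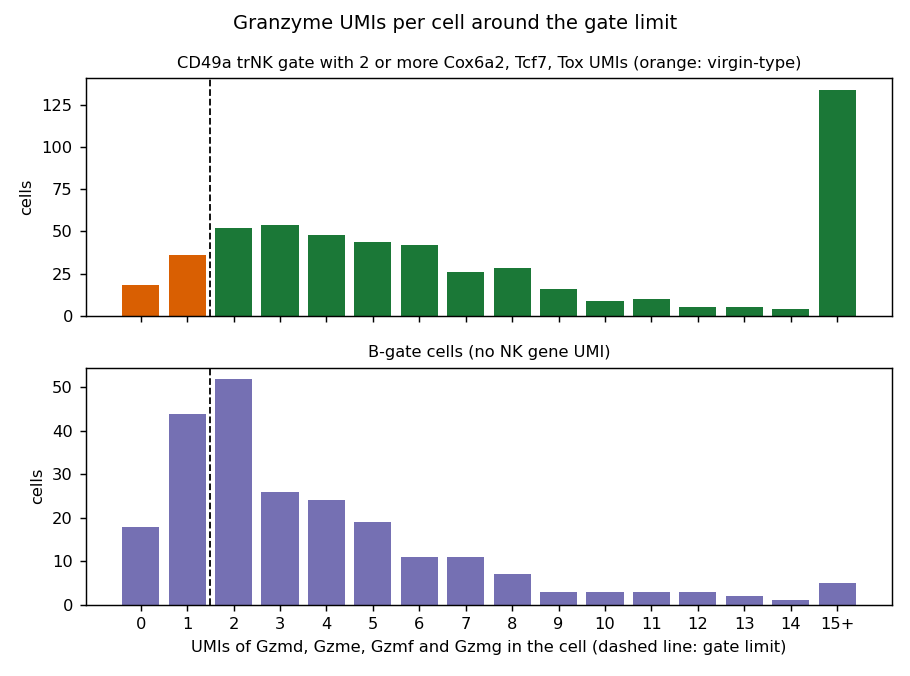
Cells (y axis) by their UMIs of Gzmd, Gzme, Gzmf and Gzmg (x axis, 15+ holding 15 or more) for the trNK gate with at least 2 UMIs of Cox6a2, Tcf7 and Tox (upper panel) and for B-gate cells (lower panel). The 54 virgin-type cells are the 2 orange bars left of the dashed limit, and 170 of the 232 B-gate cells lie to its right.

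Depth entered the gate as well. The virgin-type cells had a median of 3205 UMIs (lowest 902, highest 12097), against 9195 for the 2928 granzyme-high trNK cells, which had at least 10 granzyme UMIs under the same gate with no demand on Cox6a2, Tcf7 and Tox. Among trNK cells without a granzyme or Cox6a2, Tcf7 and Tox limit, 3.47% of those under 1500 UMIs were virgin-type, 2.98% of those from 1500 to 3000, 2.45% of those from 3000 to 6000 and 0.184% of those from 6000 to 12000. When every cell was thinned to 1500 UMIs and gated again, 45 cells passed, and 14 of these were among the 54. In all comparisons below, levels are CPM, the UMIs of a gene summed over a set of cells and scaled to the total UMIs of that set, and intervals are exact 95% Poisson intervals that cover counting error only. The 54 cells gave 189796 UMIs in all, so that a gene with 0 UMIs could have stood at up to 15.8 CPM (3 UMIs).

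The cells met the rule on Cox6a2, Tcf7 and Tox in different ways. Tcf7 was detected in 36 of the 54 cells (highest 11 UMIs in a cell), Tox in 32 (highest 4) and Cox6a2 in 10 (highest 12). Of the cells, 15 entered with Tcf7 alone, 10 with Tox alone, 5 with Cox6a2 alone, and 19 held both Tcf7 and Tox. No cell held all 3. The sum of the 3 genes was exactly 2 in 23 cells, while 52 further cells with a sum of 1 lay just outside. Ncr1 was found in 45 cells, Klrb1c in 39 and Eomes in 35, or 64.8% (exact binomial interval 50.6 to 77.3%). Since Eomes separates NK cells from type 1 innate lymphoid cells (ILC1s), the 19 cells without an Eomes UMI were examined apart. They were shallower, with a median of 2358 UMIs against 3827.

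The 8 ILC1 markers outside the gate summed to 363.6 CPM, against 48.7 in granzyme-high trNK cells and 289.5 in cNK-gate cells, and 31 of the 54 cells held a UMI of them. The sum was higher in B-gate cells, at 486.6 CPM, and 50.4% of those held a UMI of the list. It was 1797 CPM in macrophage-gate cells (at least 10 UMIs of C1qa, C1qb and C1qc, none of the NK genes). Cxcr6, Il7r, Tmem176a and Cd200r1 had 1 UMI each over the 54 cells, Tmem176b had 4, and Gzmk had 0. Cd3g, which T cells also express, had 16, and Ltb, a lymphotoxin subunit, had 45 UMIs, or 237 CPM against 4.52 in granzyme-high trNK cells and 339 in B-gate cells. In the cells without an Eomes UMI Ltb stood at 440.1 CPM and in those with one at 164.5, the interval of their ratio running from 1.42 to 5.02. Isg15, an interferon-induced gene, stood at 280.1 against 14.3 CPM there (14 and 2 UMIs), and Klrd1, a chain of the CD94 receptors, at 720.2 against 1194.5 CPM. Ltb, Isg15 and Klrd1 are examples, and further genes had an interval clear of 1, Klrc1 above it and Prf1 below it among them. Of the 41 genes described below, the interval of this ratio lay above 1 for 6 and below 1 for 4. The shares of all genes were not taken, so nothing is read from these counts. The cells were split on Eomes after the data were seen.

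Markers of other cells were checked beside these values. Of the 7 B-cell markers measured, Cd79a and Ms4a1 were at 0 and Cd79b had 1 UMI, while Ighm reached 358 CPM (68 UMIs; 210 CPM in granzyme-high trNK cells and 4706 in B-gate cells). Macrophage markers (7 measured) summed to 94.8 CPM with C1qa and Fcgr1 at 0, against 189.7 CPM in granzyme-high trNK cells. Markers of ILC2s and ILC3s were at 0 in all 7 genes, and stromal markers were at 0 in 5 of 6. T-cell markers summed to 1275.1 CPM, against 724.9 in granzyme-high trNK cells and 976.2 in cNK-gate cells. Those counts came mostly from Trbc1, Trbc2 and Trdc, whereas Cd4, Cd8a and Cd8b1 were at 0. Trdc was detected in 51.9% of the 54 cells and Cd3g in 18.5%. A UMI of Cd3d, Cd3g, Trac, Trdc, Cd79a, Cd79b, Ms4a1, C1qa, C1qb, C1qc or Csf1r was present in 34 of the cells, and the part of other cells, free RNA or doublets in the levels below was not tested. The 11 conventional NK (cNK) markers summed to 4473 CPM, against 2359 in granzyme-high trNK cells and 7120 in cNK-gate cells, and 52 of the 54 cells held at least 3 UMIs of them. Klra8 and Ccr2, at 2392 and 1359 CPM, made up most of this sum. S1pr5, S1pr1 and Cma1 were at 0, and Klf2, Itgam and Zeb2 had 8, 8 and 2 UMIs.

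Among genes that met the rule below, Cd7, Xcl1, Ccl5 and Itgax had the largest ratios of virgin-type to granzyme-high trNK cells. Genes with fewer UMIs could stand at larger ratios, as Ltb did above. A gene counted as higher when its CPM was at least 2 times that of the other set, with at least 100 UMIs in the higher set and a UMI in at least 10% of its cells. By this rule 41 of the 266 genes outside the gate with enough UMIs (15.4%) were higher, and 952 of 7135 (13.3%) were lower. The interval of the ratio lay above 1 for all 41 higher genes but below 1 for 368 of the 952 lower ones, since a lower gene could be called from very few UMIs. The contrast is the one the gate was drawn along, so these counts describe the cells and carry no test. The count of higher genes changed with the cells and UMIs summed. It was 8 with cells thinned to 1500 UMIs and 7 in the 20 cells without those T, B and macrophage markers. In the 18 cells between 200 and 2500 UMIs it was 0, and with a mitochondrial limit of 5% it was 42. With a granzyme limit of 9 it was 356 over 364 cells, and 33 of the 41 genes were among them.

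Cd7, which encodes an immunoglobulin-family surface protein of T and NK cells, had the largest ratio among the genes called higher. It reached 1807 CPM in virgin-type cells against 137 in granzyme-high trNK cells, a ratio of 13.2 (11.8 to 14.7), and it was detected in 98.1% of the cells. Xcl1, a chemokine that draws cross-presenting dendritic cells, reached 1844 against 164 CPM, 11.2 times higher (10.0 to 12.5). Ccl5, the chemokine RANTES, stood at 1517 against 150 CPM, and Itgax, the integrin chain CD11c, at 885 against 97.0 CPM. In B-gate cells these 4 genes stood at 41.3, 34.8, 143 and 34.8 CPM, so that each was at least several times above that background. Ms4a4b, a tetraspanning membrane protein of T and NK cells, was at 1380 CPM, 8.64 times (7.60 to 9.78) its level in granzyme-high trNK cells.

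For the gene lists below, a gene was read when it had at least 10 UMIs in virgin-type or 100 in granzyme-high cells. Over the 9719 genes read outside the gate, the interval of the ratio lay above 1 for 13.4% and below 1 for 6.12%, and the median ratio was 1.19. These shares stand as the background of every list and, since the gate was drawn along this contrast, nothing further is read from the lists. Of the NK receptors on the list examined, 29 were measured and 26 could be read. By the 2-fold rule 5 were higher and 4 were lower. The interval of the ratio lay above 1 for 18 and below 1 for 4, and their median ratio was 2.59. Klra4 (Ly49D, an activating receptor) reached 1249 against 201 CPM, a ratio of 6.22 (5.44 to 7.09), and Klra8 (Ly49H, which sees a protein of mouse cytomegalovirus) 2392 against 561 CPM. Klrk1 (NKG2D), Klrd1 (CD94) and Klre1 were 5.44, 2.27 and 2.39 times higher. Cd160, a receptor for herpesvirus entry mediator, was at 274 against 33.9 CPM and missed the rule with 52 UMIs. The lower receptors were Klra5 (1 UMI), Klrg1 (116 against 652 CPM), Ctla4 (3 UMIs) and Havcr2 (TIM-3). Havcr2 had 0 UMIs and was at least 9.39 times lower than the 148 CPM of granzyme-high trNK cells. Members of the Ly49 family are near-identical, so reads can pass between Klra genes and the pseudogene Klra13-ps, which was also among the 41.

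Genes of class I molecules were also among the 41. H2-Q6 and H2-Q7 of the Qa-2 group were at 701 and 832 CPM, 7.61 and 6.95 times their levels in granzyme-high trNK cells, while H2-K1, H2-D1 and B2m were 2.45, 2.13 and 2.16 times higher. The GTPases of lymphocyte survival Gimap4 and Gimap3 were 5.59 and 5.55 times higher, and Lck, the kinase that acts close to lymphocyte receptors, 4.96 times. Zfp36l2, an RNA-binding protein that destabilises transcripts, was 4.70 times higher and Btg1, an antiproliferative factor, 3.58 times. Sept1, Arhgap45, Vim and Ahnak, which encode cytoskeletal and membrane-associated proteins, lay between 3.13 and 3.58 times. Of the 41 genes 24 were at least 2 times above B-gate cells. The other 17, among them H2-Q6, Gimap3, Junb, Btg1, Arhgap45, H2-K1, H2-D1 and B2m, were not.

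**Figure D2:**
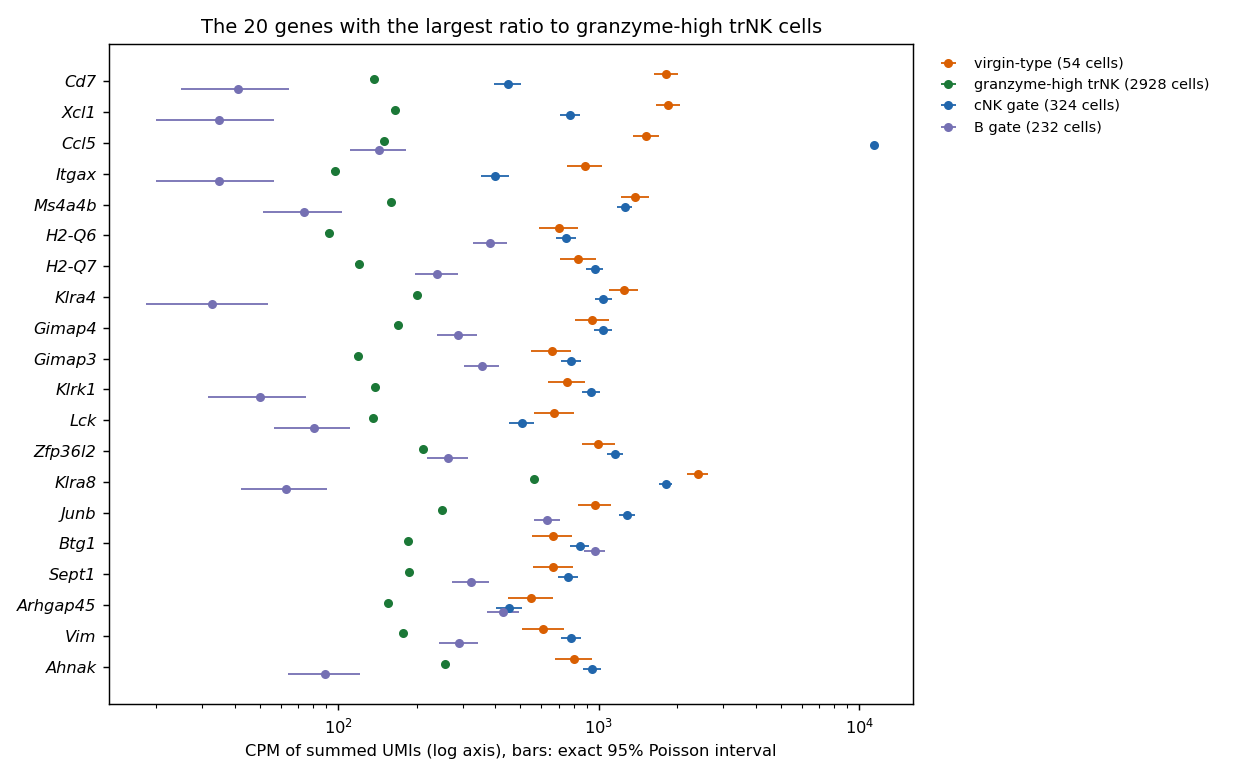
CPM of summed UMIs on a log axis in 4 sets of cells, with exact 95% Poisson intervals as bars. The 20 genes are those with the largest ratio to granzyme-high trNK cells among the genes called higher (the pseudogene Klra13-ps left out). Cd7 and Xcl1 stand above all other sets shown, whereas Ccl5 is at 11351 CPM in cNK-gate cells and 1517 in virgin-type cells.

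Of the immediate early and heat shock genes 3 were called higher and 0 lower. Junb was 3.86, Jun 2.29 and Hspa1b, a stress-induced chaperone, 2.26 times higher, and over the 16 genes of this list the interval lay above 1 for 11 and below 1 for 1 (median ratio 2.04). Fos, Dusp1 and Nr4a1 had too few UMIs for the rule, with 474, 269 and 353 CPM against 88.2, 39.9 and 60.7. These genes are known to respond to tissue digestion and sorting, and a part of handling was not tested. All 3 were higher still in cNK-gate cells, at 1497, 605 and 775 CPM.

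Of 19 cytolytic genes outside the gate, 6 were called lower and 1 higher (Ctsw, a cathepsin of cytotoxic lymphocytes, at 775 against 322 CPM). The interval lay below 1 for 7 and above 1 for 4 of the 17 read, with a median ratio of 0.851. Gzmc stood at 595 CPM against 8403 in granzyme-high trNK cells (14.1 times, 11.7 to 17.1) and at 408 in B-gate cells. Prf1, the pore-forming protein perforin, was at 358 against 2054 CPM, Gzmb at 2792 against 10109 and Gzma at 843 against 2171. Spp1, the secreted protein osteopontin, was at 743 against 3563 CPM. The surface markers used to sort trNK-T cells were lower too, with Tnfrsf9 (4-1BB) at 453 against 1856 CPM and Cd55 at 137 against 661. Ctsg, cathepsin G, had 0 UMIs and was at least 7.12 times lower. The 10 genes ranked as smallest in ratio included Ifitm1 (58.0 against 1396 CPM, 11 UMIs), Mt2 (42.2 against 949 CPM, 8 UMIs) and Gzmc. The others, Myo10, Ifitm3, Klra5, Ccl1, Zbtb32, Il2ra and Nop16, had 1 or 2 UMIs each. Of the genes called lower, 160 had 0 UMIs and were ranked as if they had 3, so genes with 1 or 2 could rank below them. Of 15 chaperones and related genes of the endoplasmic reticulum 7 were called lower and 0 higher, and the interval lay below 1 for 12 and above 1 for 0, with Calr at 985 against 2636 CPM and Hsp90b1 at 632 against 2117.

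Several cytokine receptors and transcription factors had few UMIs, although the 2 lists summed to 4278 and 4832 CPM. In granzyme-high trNK cells they summed to 3236 and 5248 CPM. Il21r, the receptor for IL-21, had 18 UMIs in 20.4% of the cells, or 94.8 CPM against 15.7 in granzyme-high trNK cells, 52.4 in cNK-gate cells and 130 in B-gate cells. Il10rb, a chain shared by the IL-10 family receptors, was at 169 against 25.5 CPM. Of 20 cytokine receptors 15 could be read, 0 were called higher and 1 lower. The interval lay above 1 for 9 and below 1 for the one called lower, Il2ra, the high-affinity IL-2 receptor chain induced on activated lymphocytes. Of 34 transcription factors outside the gate 29 could be read, 0 were called higher and 4 lower. The interval lay above 1 for 9 and below 1 for 5, with a median ratio of 1.0071. Ikzf3, Stat4 and Gata3 stood at 184, 132 and 105 CPM against 45.7, 31.1 and 48.2. Irf8 was at 443 against 1024 CPM. Id2, Runx3 and Stat3 lay between 0.788 and 1.21 times their level in granzyme-high trNK cells. The list of 8 genes that the study named as falling along trNK differentiation, outside the gate, had an interval above 1 for 7. The list of 12 that it named as rising had an interval below 1 for 9. Both lists were drawn up by the study on these samples and are not independent evidence of direction. Apart from Cox6a2, the 11 readable cytochrome oxidase genes had a median ratio of 0.959.

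Against the 324 cNK-gate cells (no Itga1, at least 2 UMIs of a set of cNK genes that includes Itgam, S1pr5 and Klf2, and otherwise the same limits on NK genes, Cd3e, granzymes and cycling), 8 of 266 genes (3.01%) were higher and 102 of 1123 (9.08%) were lower. The 8 were Spp1, Cd7, Thy1, Car2, Xcl1, Itgax, Gzmc and Padi2, at ratios from 2.03 to 4.35. Cd7, Xcl1 and Itgax were thus higher than in both granzyme-high and cNK-gate cells. Of the 41 genes 1, Ccl5, was lower than in cNK-gate cells.

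The same genes were also read in 148 cells that met every other limit but had no UMI of Cox6a2, Tcf7 and Tox (median 2099 UMIs). Cd7 stood at 1559 CPM there against 1807 in virgin-type cells, a ratio of 1.16 (1.0095 to 1.33), and Xcl1 at 1724 against 1844 CPM. Ccl5 was higher in those cells, at 3318 CPM. Itgax stood at 985 CPM there against 885 in virgin-type cells, a ratio of 0.899 (0.742 to 1.08). Over the 41 genes the median ratio of virgin-type cells to these cells was 1.008, with an interval above 1 for 7 and below 1 for 9. The shares of all genes in this comparison were not taken, so nothing is read from the counts of intervals. In the 310 cells with 2 to 9 granzyme UMIs and at least 2 UMIs of the early genes, Cd7 stood at 1458 and Xcl1 at 1602 CPM.

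**Figure D3:**
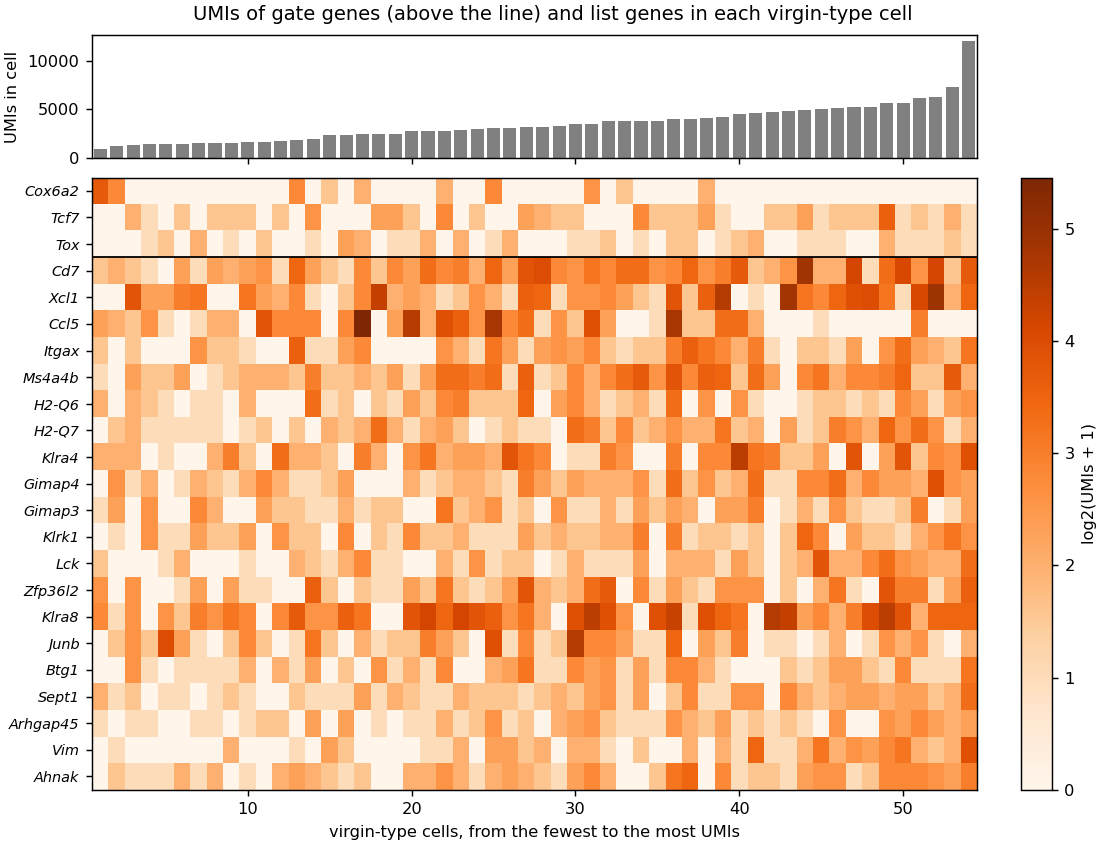
UMIs of the 3 gate genes and of the 20 list genes in each of the 54 virgin-type cells as log2(UMIs + 1), with the total UMIs of the cell above. Cd7 is found across nearly all cells, whereas Ccl5 is concentrated in some cells and Cox6a2 in 10.

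The cells varied among themselves more in some genes than counting and depth alone would give. For each gene with at least 50 UMIs, the squared deviations from the level expected at each cell's depth were divided by their Poisson expectation, which gives 1 for counting alone. Over 580 such genes the median was 1.38. Gzma reached 41.9, being detected in 33.3% of the cells, and Ccl5 reached 17.3, with 68.5% of cells positive and 43 UMIs in the highest. Gzmb was at 15.7, Hspa1b at 10.3, Jun at 8.35 and Junb at 8.23. Cd7 was at 3.09, Klra4 at 3.81 and Klra8 at 4.77, while Sept1 and Mbnl1 were at 0.932 and 0.973. Leiden clustering on genes outside the gate returned 1 cluster at resolutions 0.3 and 0.5 and 4 clusters, of 18, 14, 14 and 8 cells, at resolution 1.0, and no subset was named from it.

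The promoters of the 41 genes were searched because the genes stood higher together in cells chosen partly on Tcf7 and Eomes, whose proteins bind the TCF/LEF and T-box letters. RefSeq windows of 250 bases before to 50 after the start (GRCm38.p6) were found for 31 of the 41. The letters TCAAAG on either strand were present in 4 of the 31 (12.9%), against 16.2% of all 27025 windows. The letters GGTGTG were present in 6 (19.4%), against 19.0%, and TGACTCA, the AP-1 letters that JUN proteins bind, in 2 (6.45%), against 5.17%. Each share lay near that of all windows. Xcl1 and Itgax, which were higher than in both granzyme-high and cNK-gate cells, are shown, with the letters found in capitals. Cd7 was not matched.
Xcl1, T-box letters on the minus strand, chr1:164935683-164935732: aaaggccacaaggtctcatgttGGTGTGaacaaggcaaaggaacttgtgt
Xcl1, T-box letters in reverse complement, minus strand, chr1:164935583-164935632: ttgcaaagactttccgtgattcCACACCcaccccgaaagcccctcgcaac
Itgax, AP-1 letters in reverse complement, plus strand, chr7:128129472-128129522: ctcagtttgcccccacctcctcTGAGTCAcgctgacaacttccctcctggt
A match describes these letters and is not a binding site.

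The sorted subsets of gd8.5 were measured in libraries that the gate had not used. They were sorted on CD55 and 4-1BB, whose genes were lower in virgin-type than in granzyme-high cells, so that this comparison runs along the same axis as the gate and is not independent evidence of direction. In RPKM, the reads per kilobase of gene scaled to library size, Tcf7 was at 33.7 and 49.9 in the 2 trNK-V libraries, 14.3 and 12.4 in trNK-D and 3.11 and 0.345 in trNK-T. Tox was at 21.8 and 24.97 in trNK-V, 15.2 and 8.05 in trNK-D and 3.55 and 2.15 in trNK-T. Cox6a2 was at 34.8 and 98.4 in trNK-V, 29.5 and 59.6 in trNK-D and at 0 counts in both trNK-T libraries. Gzme rose from 43.6 and 60.9 in trNK-V to 3616 and 4704 in trNK-T (adjusted p = 0.000273, edgeR quasi-likelihood test with Benjamini-Hochberg adjustment). Along the same sort Eomes was at 44.9 and 41.5 in trNK-V against 41.6 and 44.1 in trNK-T. The trNK-V libraries thus stood on the side of the virgin-type gate, and the trNK-T libraries on the granzyme side. Markers of other cells also moved with trNK-V. Of the T-cell markers tested, 4 of 6 (Trdc, Trac, Cd3g and Cd3d) were called lower in trNK-T. So were 2 of 3 macrophage markers and 1 of 3 B-cell markers (Cd74), against 13.1% of all genes tested. The part of other cells in the differences below was not tested.

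All 41 genes higher in virgin-type than in granzyme-high cells were matched in the bulk tables and passed the filter on low values (RPKM above 10 in both libraries of a group) for the subsets. A gene was called at an adjusted p under 0.05 and a fold above 2. In trNK-T against trNK-V, 32 of the 41 were called lower, against 13.1% of the 4682 genes tested, and 0 were called higher, against 8.07%. All 41 had a negative log2 fold change, with a median of -1.70, against -0.01 over all genes tested. Without trNK-V replicate 2 the count of lower genes was smaller, with the 1 trNK-V library left assumed to vary like the other groups of the fit.

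Cd7 was at 1970 and 2441 RPKM in trNK-V, 1043 and 867 in trNK-D and 242 and 103 in trNK-T. The 3 subsets did not overlap, and trNK-T was lower by 3.84 ± 0.44 on the log2 scale (SE, 2 libraries per group; edgeR adjusted p = 0.00359). Xcl1 was at 1621 and 1578 RPKM in trNK-V, 1063 and 951 in trNK-D and 262 and 234 in trNK-T, without overlap. It fell by 2.86 on the log2 scale (SE 0.17, edgeR adjusted p = 0.000569). Itgax was at 78.2 and 97.2 RPKM in trNK-V, 75.03 and 41.2 in trNK-D and 19.3 and 4.22 in trNK-T, and fell by 3.05 (SE 0.70, edgeR adjusted p = 0.0193). One trNK-D library lay close to the trNK-V range and the other well below it.

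Most of the NK receptors tested fell with them. Klra4 was at 640 and 1049 RPKM in trNK-V, 312 and 463 in trNK-D and 70.8 and 118 in trNK-T, 10.2 times lower in the last (edgeR adjusted p = 0.00303). Klra8, Klrk1, Klre1 and Klrd1 fell by 4.20, 5.69, 3.25 and 3.17 times, each at an edgeR adjusted p of 0.00885 or less. Of the 28 NK receptors tested, 18 were called lower and 3 (Klrg1, Havcr2 and Ctla4) higher, where 13.1% of all genes tested were called lower and 8.07% higher. Cd160 was at 170 and 163 RPKM in trNK-V and 19.9 and 40.1 in trNK-T. Il21r, at 45.9 and 49.5 RPKM in trNK-V and 14.3 and 7.22 in trNK-T, was called lower among 9 of the 13 cytokine receptors tested. Of 17 chaperones and related genes of the endoplasmic reticulum, 10 were called higher in trNK-T and 1 lower.

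Gimap4 stood at 1034 and 989 RPKM in trNK-V against 237 and 155 in trNK-T, Gimap3 at 401 and 442 against 71.5 and 44.7, and Lck at 472 and 413 against 93.0 and 131. All 3 were called lower. H2-Q6, at 380 and 429 against 103 and 56.0 RPKM, and H2-Q7, at 338 and 251 against 88.8 and 48.6, were called lower as well. B2m was at 8051 and 8095 RPKM in trNK-V and 6266 and 4683 in trNK-T, a fold of 1.66 that missed the limit of 2. Junb was at 650 and 905 against 158 and 46.0 RPKM, Jun at 140 and 242 against 26.9 and 16.2, and Hspa1b at 159 and 583 against 7.97 and 45.3, and all 3 were called lower, as were 9 of the 14 immediate early and heat shock genes tested, against 13.1% of all genes.

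The 9 genes not called were Ccl5, Vim, Rgs2, Itgal, Ablim1, S100a10, B2m, H2-D1 and Mbnl1. Ccl5 was at 2369 and 4011 RPKM in trNK-V and at 417 and 10.4 in trNK-T. Its 2 trNK-T libraries lay far apart, and its log2 fold change of -4.05 had an SE of 1.5 (edgeR adjusted p = 0.0756). Vim missed at a fold of 1.99, and Rgs2 at an edgeR adjusted p of 0.289, its trNK-T libraries at 138 and 26.3 RPKM overlapping trNK-V at 120 and 193.

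**Figure D4:**
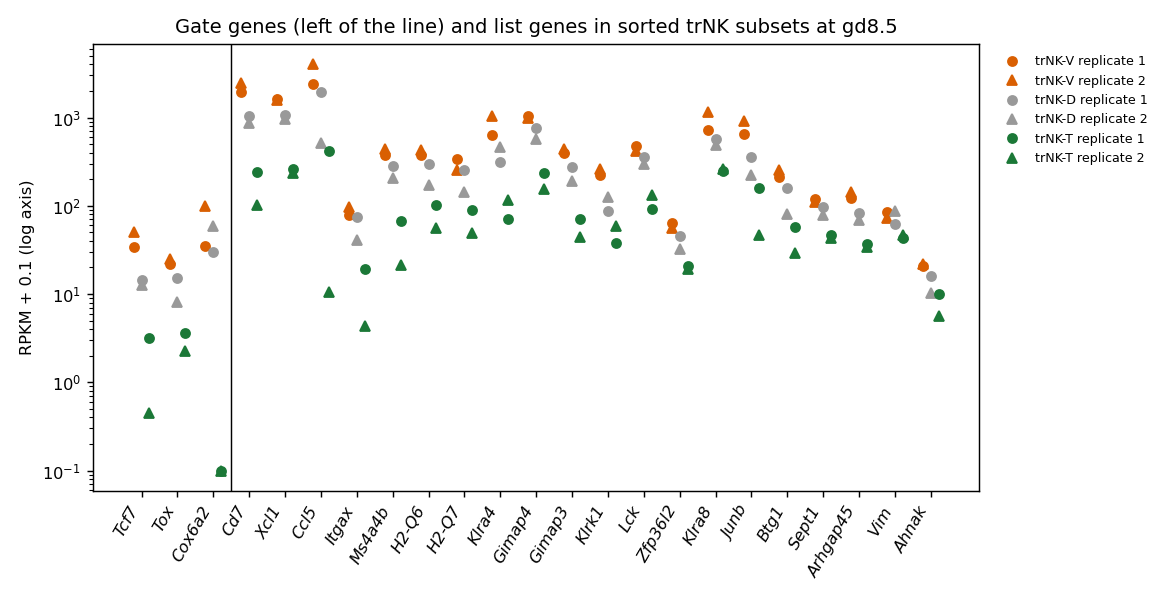
RPKM (log axis) of the 3 gate genes and the 20 list genes in the 2 libraries each of trNK-V, trNK-D and trNK-T, with circles for replicate 1 and triangles for replicate 2. The trNK-T libraries lie below the trNK-V libraries for every gene shown, while Ccl5 differs between its trNK-T libraries (417 and 10.4 RPKM).

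In the intermediate subset the fall was not called in the main edgeR fit, while some other settings, given here and further below, called a few genes. In trNK-D against trNK-V, 40 of the 41 genes had a negative log2 fold change, with a median of -0.72, against 0.01 over all genes. edgeR called 0 of them lower and 0 higher, against 0.0641% and 0.256% of the 4682 genes, while 26 were lower at an unadjusted p under 0.05, against 10.6% of all genes. DESeq2 called 5 lower, against 1.99% of all genes, and limma with voom 0, against 0.32%. The trNK-D and trNK-T comparisons share the trNK-V libraries.

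Between whole trNK populations the pattern was weaker. In gd8.5 against virgin trNK cells 40 of the genes were tested, Ahnak being below the filter. edgeR called 0 lower and 0 higher, against 0.315% and 0.0225% of 4448 genes, with 10 lower at an unadjusted p under 0.05, against 8.36% of all genes. DESeq2 called 4 lower, against 2.9% of all genes, and limma with voom 0, against 0.472%. Of the 40, 32 had a negative log2 fold change (median -0.48, against 0.00 over all genes). The 2 virgin libraries stood apart from each other. Gzmb, Gzmc and Gzme were at 167, 21.7 and 0 RPKM in virgin replicate 1 and at 9289, 8912 and 322 in virgin replicate 2, where gd8.5 cells had 10190 and 9746, 7183 and 8067, and 1053 and 1102. Spp1 was at 365 and 6264 RPKM in the virgin libraries and at 4691 and 4419 in gd8.5 cells. Virgin replicate 2 therefore held high levels of granzyme transcripts, although labelled virgin. Replicate 1 stood apart in Tbx21, at 4.59 RPKM against 42.3 in virgin replicate 2. Tbx21 was at 58.4 and 64.4 RPKM in gd6.5 and 44.2 and 44.9 in gd8.5 cells. The table of virgin replicate 1 also listed 55573 genes, against 54446 in the others. Which virgin library better stands for virgin cells was not tested. Markers of other cells differed between the 2 virgin libraries as well, with Cd3d at 78.7 and 1.74, Cd3g at 177 and 28.6, Cd74 at 62.0 and 7.97 and Apoe at 9.16 and 0.93 RPKM in replicates 1 and 2. Trac, at 8.92 and 19.7 RPKM, and the globin gene Hba-a1, at 1.35 and 87.3, were higher in replicate 2. The part of other cells in this comparison was not tested. Tcf7 was at 75.8 and 13.5 RPKM in virgin, 4.72 and 9.29 in gd6.5 and 11.4 and 8.06 in gd8.5 cells. Cd7 was at 3826 and 1685 RPKM in virgin, 578 and 949 in gd6.5 and 1127 and 1274 in gd8.5 cells, with both virgin libraries highest. Without virgin replicate 2 some of the genes were called lower in gd8.5 cells. In that fit the 1 virgin library left is assumed to vary like the other groups. The share of all genes called in it was not taken, so nothing is read from it. In these bulk populations fewer cells of a type and less RNA per cell cannot be told apart.

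Culture of trNK-V cells with IL-21 for 72 h left the list without a call in the main edgeR fit. edgeR called 0 of the 41 lower and 0 higher, against 0% and 0.289% of 4159 genes, with 6 lower at an unadjusted p under 0.05, against 4.18% of all genes. DESeq2 called 1 lower, against 1.42% of all genes, and limma with voom 0, against 0.024%. The median log2 fold change was -0.30, against -0.02 over all genes, and 27 of 41 were negative, against 51.7% of all genes. Cd7 was at 1075 and 1150 RPKM without IL-21 and at 402 and 246 with it. The groups did not overlap, and the log2 fold change of -1.83 (SE 0.34) had an edgeR adjusted p of 0.0824, the lowest of the 41. Ccl5 went the other way, at 987 and 465 RPKM without and 2262 and 1852 with IL-21 (edgeR adjusted p = 0.15). Xcl1 was at 1101 and 266 RPKM without and 763 and 88.9 with IL-21, so that its replicates differed more than the groups.

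**Figure D5:**
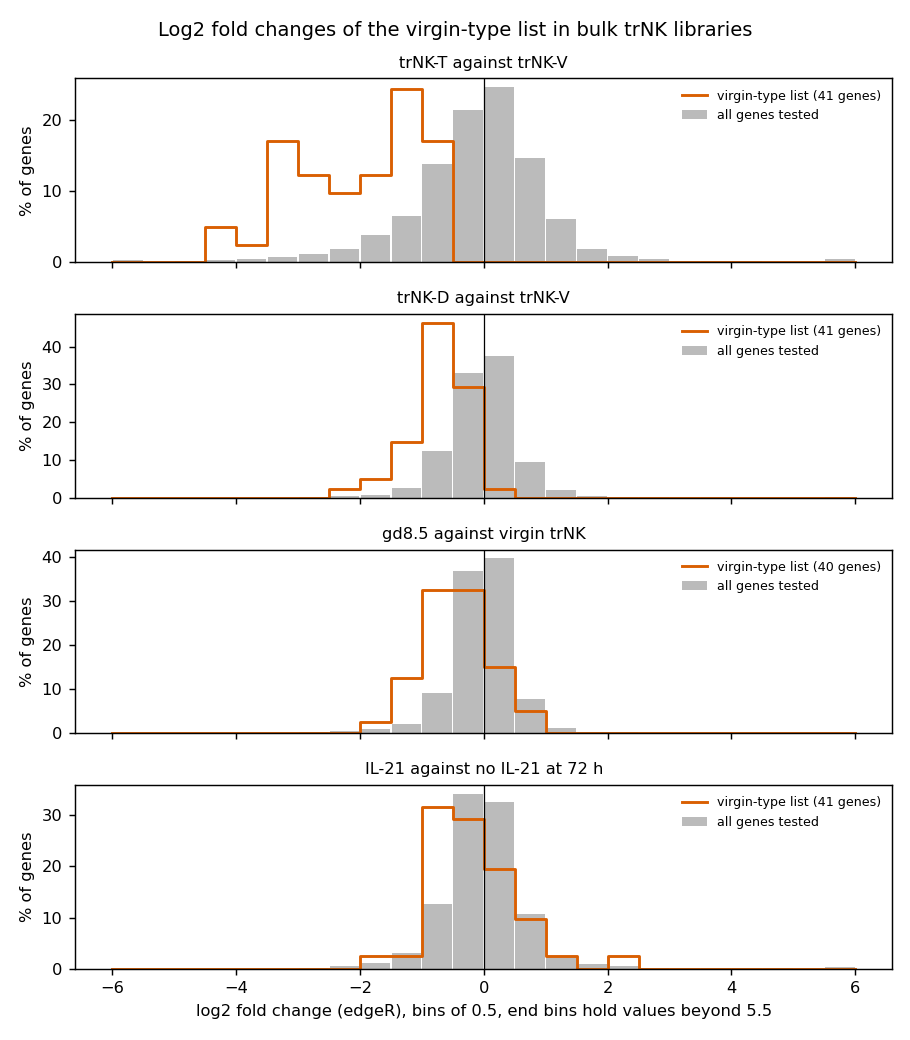
Share of genes (y axis) by log2 fold change (x axis, edgeR, bins of 0.5) in 4 bulk comparisons, with all genes tested as grey bars and the virgin-type list as an orange line. The list lies wholly below 0 in trNK-T against trNK-V (median -1.70) and straddles 0 with IL-21 (median -0.30).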

How the data were processed

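Single-cell UMI counts of 35237 genes and 18 bulk tables of read counts per gene were read as the authors deposited them. Per the methods, cell counts came from the BD Rhapsody WTA Local pipeline 1.9.1 on GRCm39. Bulk libraries came from the SMART-Seq HT kit and were sequenced as paired reads of 150 bases. The submitters' processing notes name HISAT2 2.1.0, featureCounts (Subread) and mm10, whereas the methods name RSEM. The table of virgin replicate 1 listed 55573 genes and the others 54446, and 54353 were shared. Gene names came from the annotation table supplied, and 22 genes of the lists used were not analysed here in cells. The 16 time-course tables were not used. Cells were gated and their UMIs summed with Python 3.11.15 and scipy 1.17.1, no doublet caller was run, and the study's own limits (more than 200 and fewer than 2500 UMIs) were kept as an alternative because 18 of the 54 cells pass them. Clusters used scanpy 1.11.5 (20 principal components of 2000 variable genes, 20 neighbours). Bulk counts were tested with edgeR 4.0.16 (TMM, quasi-likelihood, two-sided, Benjamini-Hochberg), in 1 fit per experiment, with DESeq2 1.42.0 and limma 3.58.1 as alternatives. Scripts were tested on simulated counts. Replicates of 1 group differed by more than sampling noise in every bulk group. Named genes were those of gene lists written by hand and others taken by ratio among genes that met the 2-fold rule. These were the 20 largest and 10 smallest ratios to granzyme-high trNK cells and the 10 largest to cNK-gate cells. Ribosomal protein, mitochondrial, predicted and histone genes were left out, and 8 genes met the last rule. Members and lists were chosen with earlier results of these data known. Results of some genes are not reported here.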

Additional observations from a re-analysis of the deposited data

How the results depend on the processing

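The number of virgin-type cells depended on the gate: 106 with at least 1 and 31 with at least 3 UMIs of Cox6a2, Tcf7 and Tox, 35 with Eomes required, 20 without T, B and macrophage markers, 18 between 200 and 2500 UMIs, and, chosen after seeing the data, 160 and 364 with granzyme limits of 3 and 9. Genes at least 2 times higher, lower and in either direction numbered 8, 305 and 313 in thinned cells, 0, 14 and 14 between 200 and 2500 UMIs, 7, 1608 and 1615 without other markers, and 356, 293 and 649 with the limit of 9. A limit of 3 gave 177 higher and 506 lower, and requiring Eomes 27 higher. The ratio of Vim turned to 0.808 between 200 and 2500 UMIs. Fewer UMIs leave fewer genes over the minimum of 100. Clusters numbered 4 at resolution 1.0. In trNK-T against trNK-V, 19 of the 21 genes at 3 times were called lower, against 13.1% of all genes tested. From the list of 356 genes at the limit of 9, 220 were called lower in the same fit. How many of the 356 passed the filter is not given here, so 220 is not read as a share. The main count changed when 1 library was left out. In trNK-D, DESeq2 called 5, no filter 8 and the longer list 3, and leaving out a library gave 0. In gd8.5 cells these were 4, 6 and 2, and the main count changed when a library was left out. With IL-21, DESeq2 and no filter each called 1, and leaving out a library gave 0. The cause of these changes was not tested. Same-numbered libraries were not shown to pair. Their deviations correlated at 0.119, -0.00859 and 0.387 in the subsets and at -0.308, 0.112 and -0.032 across gestation. In culture they correlated at 0.54 between cells without and with IL-21, and at -0.376 and -0.431 for the pairs with Stattic. With a replicate block the calls were 33 in trNK-T, 2 in trNK-D, 0 in gd8.5 cells and 0 with IL-21. The shares of all genes called with the block or without a filter were not taken, so nothing is read from those counts. The longer-list counts stand beside 0.0641% of all genes called lower in trNK-D and 0.315% in gd8.5 cells. Results of single named genes kept their direction and call in 339 of the trNK-T alternatives, while 19 became weaker and 6 stronger. Ratios of named genes between virgin-type and granzyme-high cells stayed within their interval in 191 alternatives, moved beyond it in 107 and turned in 1.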

Other observations

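Of 15 interferon-induced genes 0 were called higher and 2 lower in virgin-type than in granzyme-high trNK cells. The interval of the ratio lay above 1 for 9 and below 1 for 2, against 13.4% and 6.12% of all genes read, with a median ratio of 3.56 against 1.19, while the summed level was lower, at 800.9 against 1894.7 CPM. Ifit3, Mx1 and Irf7 were at 42.2, 47.4 and 58.0 CPM against 5.71, 10.7 and 15.1, on 8 to 11 UMIs each, and B-gate cells were higher still at 256, 71.7 and 241 CPM. The 2 lower genes were Ifitm1 and Ifitm3, which encode membrane proteins that restrict virus entry, and both were called higher in trNK-T than in trNK-V libraries.

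Of 16 homing genes 12 could be read, 1 was called higher and 0 lower. Over all genes with enough UMIs these shares were 15.4% and 13.3%. The interval lay above 1 for 9 and below 1 for 0, against 13.4% and 6.12% of all genes read. Cxcr3, a receptor for interferon-induced chemokines, was at 73.8 against 3.52 CPM on 14 UMIs. The 21 secreted factors summed to 4652 CPM, against 4223 in granzyme-high trNK cells, with 2 called higher and 2 lower. The interval lay above 1 for 4 and below 1 for 2 of the 14 read. At 0 UMIs were 9 of the 21, among them Csf2, Il10 and Areg, each of which could have stood at up to 15.8 CPM. Ifng and Tnf had 4 and 5 UMIs.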
